A study of Mus musculus with 6 samples.

Results

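The circadian clock genes of the kidney were followed in 10 named genes, the activators Arntl, Clock and Npas2, the period genes Per1, Per2 and Per3, the nuclear receptors Nr1d1 and Nr1d2, and the output factors Dbp and Tef. All probe sets whose platform annotation gives a single symbol from this group were taken, which gave 26 of the 45037 probe sets tested, with 1 to 6 per gene. They stand among 18193 genes that have a probe set with a single symbol. The arrays compared kidneys of 3 male mice expressing the soluble intracellular domain of megalin (ICD group, titled TG) with kidneys of 3 male wild type littermates (WT group), all 10 weeks old and 1 array per animal. The ICD animals were heterozygous for the introduced allele. The labels give neither the promoter that drives it nor the hour of collection, and they do not say how the animals were fed or lit.

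In the mammalian clock, ARNTL (also called BMAL1) pairs with CLOCK or NPAS2 and switches on the Per, Cry, Nr1d, Dbp and Tef genes through DNA elements called E-boxes. The PER and CRY proteins then block that pair, and the NR1D receptors (REV-ERB) repress Arntl and Npas2 through elements that they share with the ROR receptors. In mouse kidney and other peripheral tissues Arntl and Npas2 transcripts therefore run roughly opposite in the day to those of Nr1d1, Dbp, Tef and the period genes. DBP and TEF, together with HLF, are PAR bZIP factors that act on D-boxes and pass time of day on to genes of metabolism and transport.

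The stretches around the start sites are shown for the elements named above, and a link of these to the directions on the arrays was not tested. RefSeq windows of 300 bases, 250 before to 50 after a start site (build GRCm38.p6), were found for 9 of the 10 genes, 14 windows in all. Capitals mark an E-box (CACGTG), an E-prime box (CACGTT, which reads AACGTG on the other strand), a D-box (TTATGTAA, which reads TTACATAA on the other strand) or a ROR element half-site (AGGTCA, which reads TGACCT on the other strand). Both strands were searched for exact letters, and none of the marked motifs overlap.
Arntl, chr7:113207261-113207560, plus strand, with a half-site in its transcribed part: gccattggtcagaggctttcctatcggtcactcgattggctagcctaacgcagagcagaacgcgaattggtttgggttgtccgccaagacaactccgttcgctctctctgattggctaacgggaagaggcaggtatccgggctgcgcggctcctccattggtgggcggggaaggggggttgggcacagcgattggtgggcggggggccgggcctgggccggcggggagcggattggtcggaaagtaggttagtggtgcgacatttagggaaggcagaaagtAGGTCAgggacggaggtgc
Per1, chr11:69098699-69098998, plus strand, with an E-box and a half-site: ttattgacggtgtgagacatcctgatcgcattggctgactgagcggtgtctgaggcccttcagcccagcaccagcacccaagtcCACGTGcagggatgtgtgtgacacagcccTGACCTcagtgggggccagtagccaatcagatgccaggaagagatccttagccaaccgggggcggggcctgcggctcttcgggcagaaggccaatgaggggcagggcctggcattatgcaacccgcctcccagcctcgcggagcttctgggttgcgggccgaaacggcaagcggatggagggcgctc
Per3, chr4:151044616-151044915, minus strand, with 2 D-boxes: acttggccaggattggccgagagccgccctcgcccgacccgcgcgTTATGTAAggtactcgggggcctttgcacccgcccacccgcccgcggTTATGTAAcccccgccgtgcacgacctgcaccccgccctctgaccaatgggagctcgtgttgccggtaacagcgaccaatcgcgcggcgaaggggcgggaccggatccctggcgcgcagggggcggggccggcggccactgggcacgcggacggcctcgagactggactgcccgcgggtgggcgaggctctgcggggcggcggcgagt
Nr1d1, chr11:98775328-98775627, minus strand, with an E-prime box: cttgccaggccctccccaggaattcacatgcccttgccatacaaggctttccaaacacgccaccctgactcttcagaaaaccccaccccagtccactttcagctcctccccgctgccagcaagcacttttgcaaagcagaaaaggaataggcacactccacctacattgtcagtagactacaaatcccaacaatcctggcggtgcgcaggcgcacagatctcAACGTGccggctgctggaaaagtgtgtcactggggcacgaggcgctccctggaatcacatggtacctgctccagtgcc
Tef, chr15:81802423-81802722, plus strand, with an E-box: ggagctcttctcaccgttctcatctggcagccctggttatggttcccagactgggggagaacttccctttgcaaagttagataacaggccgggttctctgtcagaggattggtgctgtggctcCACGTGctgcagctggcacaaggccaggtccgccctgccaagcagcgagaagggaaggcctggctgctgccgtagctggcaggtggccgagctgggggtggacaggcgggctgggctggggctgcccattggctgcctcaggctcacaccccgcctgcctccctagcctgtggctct

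Among all 32851 RefSeq windows of this length, 7.15% hold the E-box, 4.68% the E-prime box, 0.938% the D-box and 16.3% the half-site. Among the 9 genes with a window (all but Per2), the letters of this D-box were found in that of Per3, which is 1 of 7 of the 32851 windows that hold at least 2 of them. The windows of Npas2 and Dbp held none of these motifs. Of the 14 windows, 3 held the E-box, 1 the E-prime box, 1 the D-box and 4 the half-site. The half-site also stood in 1 window each of Clock and Nr1d2, and an E-box in the other Tef window. These are matches of letters and were not tested as binding sites.

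Across the 26 clock probe sets, none passed the test (limma, Benjamini-Hochberg adjusted p under 0.05 over 45037 probe sets), as for 0% of all probe sets. Limma adjusted p lay between 0.714 and 0.997. The directions were divided by role. All 18 probe sets of Per1, Per2, Per3, Nr1d1, Nr1d2, Dbp and Tef had a higher mean in ICD kidneys (median difference 0.24, log2), whereas 7 of the 8 probe sets of Arntl, Clock and Npas2 were lower, with a median of -0.066. Over all probe sets 47.2% were higher in ICD kidneys and the median difference was -0.0061. Several probe sets share a gene, and all 26 come from the same 6 animals, so they are not independent measurements.

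Groups without overlap were few. The 3 ICD arrays lay above the 3 WT arrays for 3 of the 26 clock probe sets (11.5%), against 5.44% of all probe sets, and below them for 1 of 26 (3.85%), against 5.05%. All 3 of the higher ones belong to a single gene, Per3. At an unadjusted limma p under 0.05 there were 4 of the 26 clock probe sets higher in ICD kidneys, where 3.61% of all probe sets were, and 1 of 26 lower, where 2.26% of all were. The higher ones were of Per3 and Tef only, and the lower one was of Arntl. With 3 animals per group, the smallest 2-sided p of an exact permutation test is 0.1, and none was run on single genes.

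**Figure D1:**
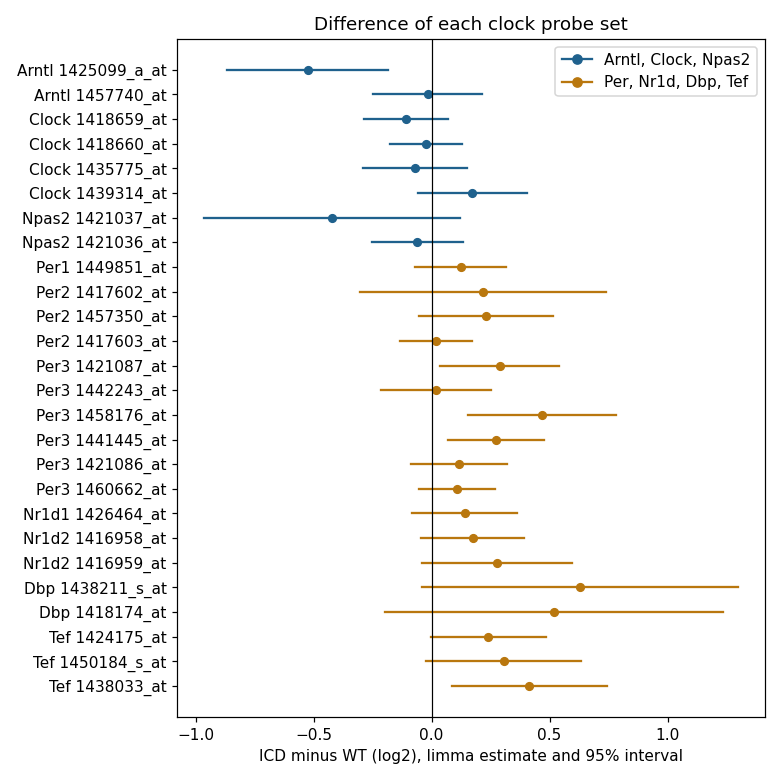
Difference ICD minus WT (log2, horizontal axis) of each clock probe set with its 95% interval from limma; blue marks Arntl, Clock and Npas2, and orange marks the Per, Nr1d, Dbp and Tef genes. All 18 orange points lie right of 0, 7 of the 8 blue points lie left of it, and no probe set passed the adjusted threshold.

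Arntl encodes the obligate partner of the activating pair and had the most negative difference of the group. Its brighter probe set 1425099_a_at read 7.92, 7.57 and 7.32 (log2) in ICD kidneys 1 to 3, against 8.00, 8.30 and 8.08 in WT kidneys 1 to 3. Every ICD array was below every WT array, but ICD 1 lay only just below WT 1. The means were 7.60 ± 0.30 in ICD and 8.13 ± 0.15 in WT kidneys (SD, n = 3 each), a difference of -0.53 ± 0.15 (SE), or 0.695-fold, with a 95% interval of -0.87 to -0.19 and a limma adjusted p of 0.714. Leaving out single animals gave -0.69 (without ICD 1) to -0.38 (without ICD 3). The dimmer Arntl probe set 1457740_at did not show this: it read 6.41, 6.11 and 6.23 in ICD and 6.16, 6.42 and 6.23 in WT kidneys, with a difference of -0.016 (interval -0.25 to 0.22). Both probe sets are annotated to the same gene, and they differ in the size of the effect.

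Npas2, which can stand in for CLOCK, followed Arntl on its brighter probe set with a wider spread. Probe set 1421037_at read 7.20, 6.59 and 6.80 in ICD kidneys, against 6.73, 7.59 and 7.55 in WT kidneys. ICD 1 was the highest ICD array and WT 1 the lowest WT array, so the groups overlapped. The difference was -0.42 ± 0.24 (SE, interval -0.96 to 0.12, limma adjusted p = 0.910), and it was -0.70 without WT 1 and -0.27 without WT 2. At the dimmer 1421036_at it was -0.060 (interval -0.25 to 0.13), and 0.017 without WT 3.

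Clock is the partner that varies little through the day in most mouse tissues. Its brightest probe set 1418659_at read 8.99, 9.04 and 9.04 in ICD and 9.00, 9.22 and 9.17 in WT kidneys, a difference of -0.11 ± 0.077 (SE, interval -0.29 to 0.068), with -0.17 without WT 1 and -0.063 without WT 2. The groups overlapped through WT 1, which lay between the ICD arrays. The other Clock probe sets differed by -0.071 (1435775_at), -0.023 (1418660_at) and 0.17 (1439314_at, a dim one). The largest of these differences, in either direction, is smaller than that of the brighter Arntl probe set. Within groups the SD was 0.085 (1418659_at) and 0.047 (1418660_at), below the median of 0.097 of probe sets at or above the median mean. It was 0.13 (1435775_at) and 0.14 (1439314_at), above that median.

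Among the period genes, whose proteins inhibit the activating pair, Per3 had the clearest separation. Its brightest probe set 1421087_at read 7.28, 7.38 and 7.46 in ICD kidneys, against 7.30, 7.07 and 6.88 in WT kidneys. The groups overlapped only through ICD 1 and WT 1, which differed by less than the spread within either group. The difference was 0.29 ± 0.11 (SE, interval 0.037 to 0.54, limma adjusted p = 0.811), and 0.19 without WT 3. The dimmer 1458176_at read 6.37, 6.69 and 6.78 in ICD and 6.34, 6.20 and 5.90 in WT kidneys, without overlap, a difference of 0.47 ± 0.14 (SE, limma adjusted p = 0.718). Probe sets 1441445_at and 1460662_at also had no overlap, with differences of 0.27 and 0.11, while 1421086_at and 1442243_at overlapped, at 0.12 and 0.020. All of the 3 Per3 probe sets without overlap had a mean below the median of all probe sets, where RMA compresses differences.

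Per2 depended on single animals of both groups. Its brightest probe set 1417602_at read 7.31, 7.77 and 7.94 in ICD kidneys, against 7.88, 7.50 and 6.99 in WT kidneys. ICD 1 and WT 3 were the low arrays and WT 1 was among the high ones. The difference was 0.22 ± 0.23 (SE, interval -0.30 to 0.74), and it was -0.013 without WT 3, 0.089 without ICD 3, 0.40 without ICD 1 and 0.43 without WT 1. Probe set 1457350_at gave 0.23 (interval -0.052 to 0.52), and 0.097 without WT 3, and the dim 1417603_at gave 0.020. Per1, a period gene that also answers to glucocorticoids, had 1 probe set, 1449851_at. It read 8.68, 8.77 and 8.65 in ICD and 8.57, 8.44 and 8.71 in WT kidneys, a difference of 0.12 ± 0.085 (SE, interval -0.070 to 0.32), with WT 3 inside the ICD range. It was 0.056 without WT 2 and 0.19 without WT 3.

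Nr1d1 and Nr1d2 encode the REV-ERB alpha and beta receptors, which repress Arntl. Nr1d1 (1426464_at) read 9.16, 9.49 and 9.36 in ICD kidneys, against 9.23, 9.09 and 9.26 in WT kidneys. ICD 1 lay within the WT range, and the difference was 0.14 ± 0.097 (SE, interval -0.082 to 0.36, limma adjusted p = 0.938). It was 0.064 without ICD 2, 0.090 without WT 2 and 0.23 without ICD 1. The brighter Nr1d2 probe set 1416958_at read 11.48, 11.69 and 11.52 in ICD and 11.55, 11.35 and 11.27 in WT kidneys. Here WT 1 exceeded ICD 1 and ICD 3. The difference was 0.17 ± 0.094 (SE, interval -0.043 to 0.39), and that of the dimmer 1416959_at was 0.28 (interval -0.041 to 0.60). Without ICD 2 they were 0.11 and 0.17, and without WT 1 the dimmer one was 0.42. Both intervals over all animals include 0.

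Dbp, a strongly rhythmic PAR bZIP output factor in many mouse tissues, had the largest spread of the group on these arrays. Its brighter probe set 1438211_s_at read 10.75, 11.63 and 11.28 in ICD kidneys, against 11.19, 10.51 and 10.07 in WT kidneys. ICD 1 sat among the WT values and WT 1 among the ICD values. The means were 11.22 ± 0.44 in ICD and 10.59 ± 0.57 in WT kidneys (SD, n = 3 each), a difference of 0.63 ± 0.29 (SE), or 1.55-fold, with an interval of -0.039 to 1.30 and a limma adjusted p of 0.867. It was 0.37 without WT 3 and 0.93 without WT 1. The other Dbp probe set, 1418174_at, read 9.88, 10.78 and 10.57 in ICD and 10.56, 9.76 and 9.36 in WT kidneys, the same order of arrays, with a difference of 0.52 (interval -0.20 to 1.24) that ran from 0.25 (without WT 3) to 0.85 (without WT 1). The within-group SD of the brighter probe set was 0.51, larger than that of 99.2% of the 22519 probe sets at or above the median mean, whose median SD was 0.097.

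Tef encodes the second PAR bZIP factor of the set. Its brightest probe set 1424175_at read 11.24, 11.51 and 11.55 in ICD kidneys, against 11.35, 11.16 and 11.07 in WT kidneys, a difference of 0.24 ± 0.11 (SE, interval -0.0019 to 0.48, limma adjusted p = 0.854). ICD 1 was again the lowest ICD array and WT 1 the highest WT array. Probe sets 1450184_s_at and 1438033_at differed by 0.31 (interval -0.022 to 0.63) and 0.41 (interval 0.085 to 0.74). The first was 0.18 without ICD 2, and the second was 0.27 without WT 2. At 1438033_at the groups overlapped through ICD 3, at 7.73, and WT 1, at 7.77.

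**Figure D2:**
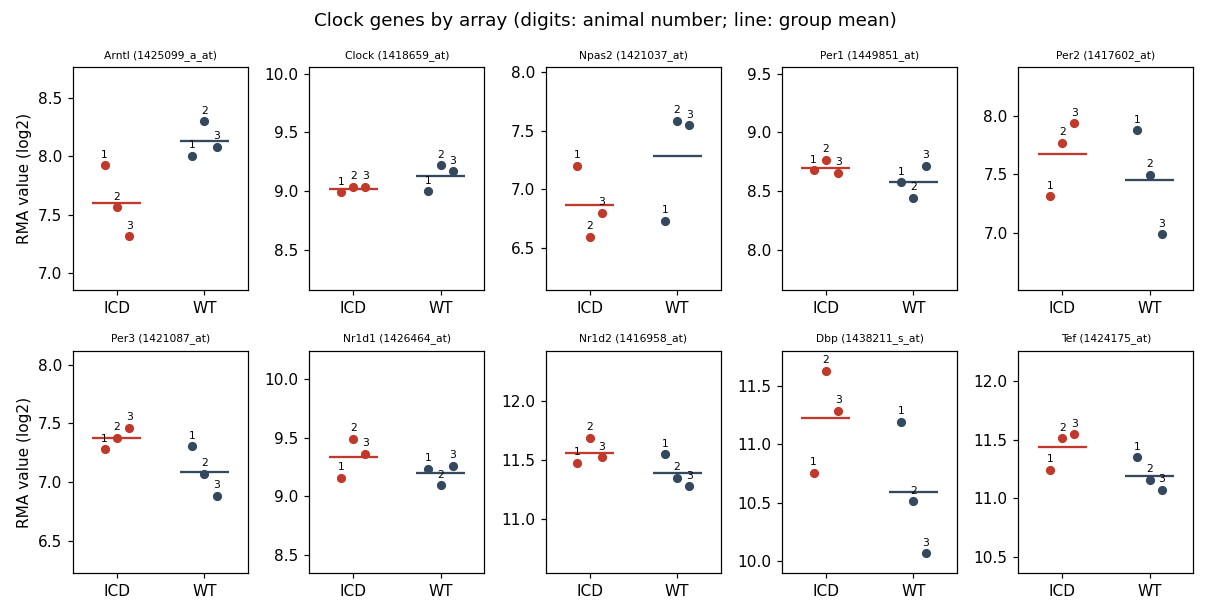
RMA values (log2, vertical axes of equal length) of the brightest probe set of each clock gene in ICD (left) and WT (right) kidneys, with digits for the animal number and a line for the group mean. Arntl is the only panel without overlap; in the Dbp, Tef and Per3 panels ICD 1 and WT 1 meet near the middle.

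The arrays were then compared by arm, since activator and repressor transcripts peak at opposite times and their contrast varies with the hour of collection. Each score is a mean over genes of the log2 value minus its mean of the 6 arrays, with the brightest probe set per gene, and it is given as a description, without a test. The score of Arntl, Clock and Npas2 was 0.032, -0.27 and -0.29 in ICD 1 to 3, against -0.095, 0.36 and 0.26 in WT 1 to 3. That of the 5 Per and Nr1d genes was -0.053, 0.18 and 0.15 in ICD kidneys, against 0.072, -0.15 and -0.21 in WT kidneys. On each of the 6 arrays the scores of the arms had opposite signs.

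Dbp and Tef, which did not enter either arm, had scores of -0.11, 0.46 and 0.30 in ICD kidneys, against 0.16, -0.27 and -0.54 in WT kidneys. Their sign matched that of the Per and Nr1d arm on every array. The contrast of the arms, activators minus Per and Nr1d genes, was 0.085, -0.46 and -0.44 in ICD kidneys, against -0.17, 0.51 and 0.47 in WT kidneys. ICD 2 and ICD 3 stood at the low end, WT 2 and WT 3 at the high end, and ICD 1 and WT 1 between them, with ICD 1 above WT 1. The groups therefore overlapped, at -0.27 ± 0.31 in ICD and 0.27 ± 0.38 in WT kidneys (SD, n = 3 each), a difference of -0.54. When every probe set of a gene was averaged, in place of taking the brightest one, it was -0.34. The hour at which each animal was collected is not in the labels, so genotype and collection time cannot be told apart by these values.

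**Figure D3:**
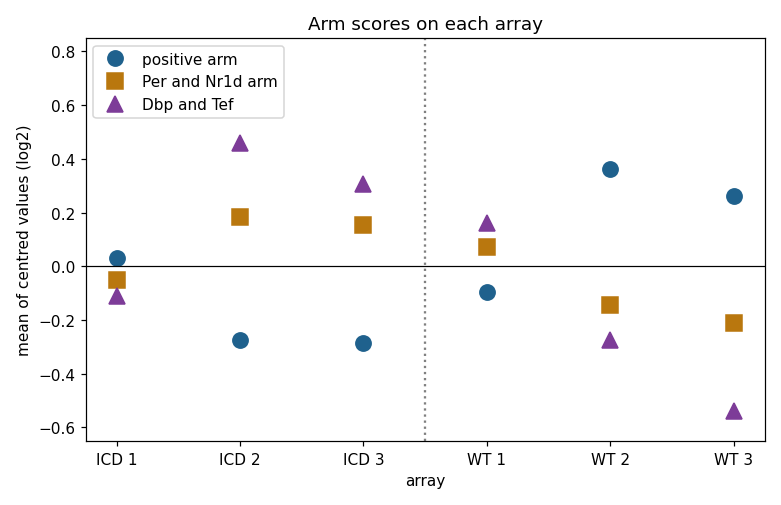
Mean centred values (log2, vertical axis) of the activators Arntl, Clock and Npas2 (circles), the Per and Nr1d genes (squares) and Dbp with Tef (triangles) on each array, ICD arrays left of the dotted line and WT arrays right of it. Activators lie opposite to the other genes on all 6 arrays, and ICD 1 and WT 1 have the scores nearest to 0 in their groups.

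Single arrays carried much of this pattern. Of the 18 probe sets of the Per, Nr1d, Dbp and Tef genes, 11 were highest on ICD 2, 6 on ICD 3 and 1 on ICD 1. By comparison, 19.7%, 12.4% and 14.8% of all probe sets were highest on those arrays. The lowest array was WT 3 for 12 of the 18, WT 2 for 5 and ICD 1 for 1, against 16.8%, 17.6% and 15.6% of all probe sets. WT 1 was neither the highest nor the lowest array for any of them.

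Other genes of the clock were described from a wider list with 18 measured genes. None passed the test, 10 were higher and 8 lower in ICD kidneys, and the median difference was 0.0096. Ciart, a repressor of the activating pair that is itself driven by E-boxes, read 7.53, 8.43 and 8.02 in ICD kidneys, against 7.86, 7.58 and 7.13 in WT kidneys. Its order of arrays resembled that of Dbp, and the difference was 0.47 ± 0.24 (SE, limma adjusted p = 0.891). It was 0.25 without ICD 2 and 0.28 without WT 3. Hlf, the remaining PAR bZIP factor, read 10.27, 10.64 and 10.56 in ICD and 10.57, 10.23 and 9.88 in WT kidneys, a difference of 0.26, with 0.091 without WT 3 and 0.44 without WT 1.

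The cryptochromes, partners of the PER proteins, lay the other way or near 0. Cry1, on a dim probe set, read 4.19, 4.26 and 4.35 in ICD and 4.43, 4.66 and 4.33 in WT kidneys, a difference of -0.21 ± 0.096 (SE, limma adjusted p = 0.867). ICD 3 exceeded WT 3, so the groups overlapped, and the difference was -0.11 without WT 2. Cry2 differed by -0.041. The activator of the ROR elements Rora differed by 0.036, and Nfil3, which opposes the PAR bZIP factors at D-boxes, by -0.061. Bhlhe40 and Bhlhe41, E-box repressors also called DEC1 and DEC2, differed by 0.13 and 0.015. Bhlhe40 differed by -0.043 without WT 3 and by 0.31 without WT 1.

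Genes downstream of the clock or of the cues that set it were taken from 3 further lists, in which no gene passed the test. Of 14 measured output genes 8 were higher and 6 lower (median 0.038). The largest differences were those of Alas1, the first enzyme of heme synthesis (-0.34 ± 0.22, SE), Pdk4, a kinase that spares glucose (0.33 ± 0.15), and Avpr2, the vasopressin receptor of the collecting duct (-0.23 ± 0.066). Avpr2 read 8.86, 8.98 and 8.95 in ICD kidneys and 9.13, 9.17 and 9.18 in WT kidneys, without overlap, at a limma adjusted p of 0.714. It is also a collecting duct marker. Of the 7 markers of that segment, Avpr2 included, 6 were lower in ICD kidneys, against 52.8% of all probe sets. Groups did not overlap for 3 of the 7, against 5.05% of all probe sets with ICD lower, and no marker passed the test. Scores over the 7, with Avpr2 in them, were -0.11 to -0.027 in ICD and 0.029 to 0.14 in WT kidneys. Alas1 was -0.065 without ICD 1, and Pdk4 was 0.19 without WT 3 and 0.21 without ICD 1.

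Of 12 temperature responsive genes 3 were higher and 9 lower in ICD kidneys (median -0.079). Dnajb1, a heat shock co-chaperone, differed by 0.38 ± 0.10 (SE, limma adjusted p = 0.714), with 10.32, 10.68 and 10.57 in ICD kidneys above 10.13, 10.24 and 10.06 in WT kidneys. Cirbp, an RNA-binding protein induced by cold, differed by 0.30, with 0.037 without WT 1 and 0.48 without WT 3, and the chaperone Hspa5 by -0.27, with -0.080 without WT 1 and -0.50 without WT 3. Of 12 glucocorticoid responsive genes 6 were higher and 6 lower (median 0.0016). The largest there were Mt1, a metallothionein, at -0.18, Cdkn1a, a cell cycle inhibitor, at -0.16, and Sgk1, a kinase that raises sodium uptake, at -0.15. Each of these had overlapping groups and moved by over 1.5 times without some single animal: Mt1 ran from -0.34 (without ICD 1) to -0.035 (without ICD 3), Cdkn1a from -0.31 (without WT 1) to 0.045 (without WT 3), and Sgk1 from -0.26 (without WT 1) to -0.060 (without ICD 3). Sgk1 and Cdkn1a stood on the output list too.

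**Figure D4:**
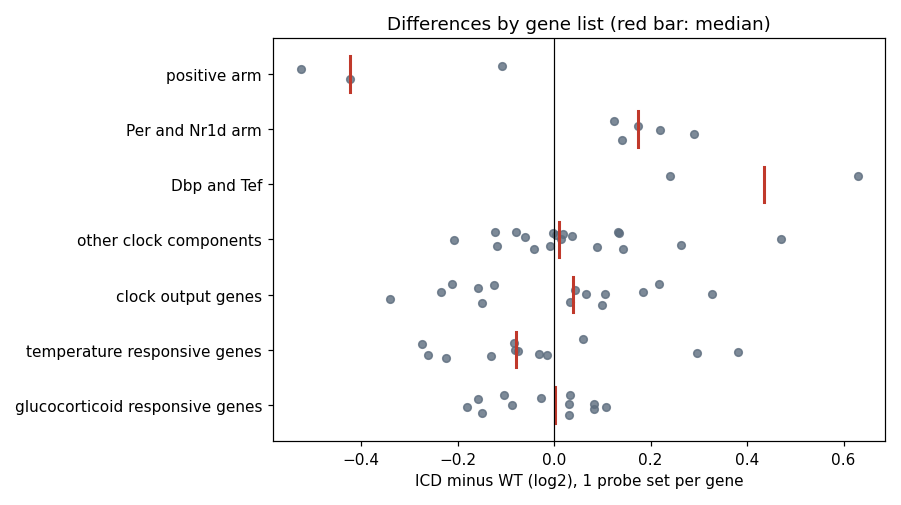
Difference ICD minus WT (log2, horizontal axis) of each measured gene, by list, with 1 probe set per gene and a red bar at the median. The Per and Nr1d genes, with Dbp and Tef, lie right of 0 and the activators left of it, while the 4 other lists spread to both sides.

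The transcripts whose values over the 6 arrays came closest to those of Arntl were sought among 19637 probe sets of other genes with a mean at or above the median. Likeness was the root mean square distance between values centred on their mean, against 0.33 for a transcript that did not vary at all. The nearest were Gclc, an enzyme of glutathione synthesis (0.13), Pnpla3, a lipid hydrolase (0.13), Ro60, an RNA-binding protein (0.14), Ces2b, a carboxylesterase (0.14), and Coq8a, needed for coenzyme Q synthesis (0.14). With the sign turned, the nearest were Irs2, the insulin receptor substrate (0.088), Malt1 (0.11), Cys1, a ciliary protein (0.12), Pcsk6, a proprotein convertase (0.13), and Lonrf1 (0.14). Irs2 read 7.25, 7.37 and 7.78 in ICD kidneys, against 7.13, 6.73 and 7.11 in WT kidneys, the mirror of the Arntl order. No member of the wider clock list was among these 10. With so many candidates and 6 arrays, close matches are found by search, and they are given as a description.

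The tissue label fitted its markers, with Slc34a1 of the proximal tubule at 14.14 to 14.22 in ICD and 13.92 to 14.17 in WT kidneys and Umod of the thick limb at 14.33 to 14.42 and 14.32 to 14.43. Of the 5 thick limb markers 4 were lower in ICD kidneys, against 52.8% of all probe sets, and none passed the test. Ptger3 had the largest difference of these (-0.35) and lay lower without overlap, where 5.05% of all probe sets did. Over 10 proximal tubule markers WT 3 had a score of -0.87, where the other 5 arrays read 0.045 to 0.28. Slc5a12 fell furthest, at 4.12 on WT 3 and 9.27 to 10.47 elsewhere. WT 3 was also the lowest array for Cubn, Slc34a1, Slc5a2, Slc22a8, Slc6a19 and Miox, but not for Lrp2, Slc22a6 or Aqp1. All 5 measured podocyte markers lay higher in ICD kidneys without overlap, where 5.44% of all probe sets did. None of the 5 passed the test (lowest limma adjusted p 0.643). Their scores were 0.16 to 0.23 in ICD and -0.29 to -0.032 in WT kidneys. All 6 endothelial markers had a higher mean in ICD kidneys, against 47.2% of all probe sets, with overlapping groups. Their scores were -0.045, 0.032 and 0.17 in ICD 1 to 3, against 0.23, -0.088 and -0.31 in WT 1 to 3. ICD 1 was thus the lowest ICD array and WT 1 the highest WT array, as for Tef at 1424175_at. Adipose scores were -0.16 to 0.35 in ICD and -0.58 to 0.049 in WT kidneys over 4 genes, and adrenal scores -0.095 to -0.0023 and 0.0066 to 0.060 over 6 genes. In bulk RNA fewer cells of a type and less RNA per cell cannot be told apart, and the part of these markers in the clock values was not tested. The contrast of the arms was -0.44 without WT 3 and -0.42 without WT 2, which does not show the part of the markers in it.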

How the data were processed

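Kidney RNA of 6 mice was hybridised to 1 Affymetrix array each, and the sample titles gave the groups with their replicate numbers. Values were deposited as log2, and RMA is named per the submitters' processing notes, without a version or filter. RMA equalises the arrays and compresses differences of dim probe sets. Arrays had medians of 6.62 to 6.66 and correlated at 0.995 to 0.997, and the number of arrays limits the precision. Of 45101 rows 64 controls were left out. Platform annotation gave 1 symbol for 34945 probe sets, and 0 symbols changed through Entrez identifiers (GRCm38.p6).

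The genotypes were tested in R 4.3.3 through limma 3.58.1 (functions lmFit and eBayes, genotype alone, 2-sided), with Benjamini-Hochberg adjustment over 45037 probe sets; the script was tested on simulated data. Where 1 probe set stands for a gene, it has the highest mean over the 6 arrays. Members and lists were chosen with earlier results of these data known. Named genes were all members, 8 further clock genes, the 3 largest differences of each cue or output list and the 5 transcripts most like or opposite to Arntl. Scanner files and scan batches were not used here.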

Additional observations from a re-analysis of the deposited data

How the results depend on the processing

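The 26 clock probe sets were refitted without each animal in turn, with the replicate number as a block, with a trended and robust prior, among probe sets at or above the median mean, after a further quantile normalization and with array weights. In none of these fits did a clock probe set pass (lowest limma adjusted p 0.435). Over all probe sets the count of calls was 0 to 1 without single animals and 1 with the trended and robust prior. None of the called ones was among the 26 clock probe sets. The direction held in all fits for 20 of the 26, and turned for 6 without some animal: Arntl 1457740_at (-0.097 to 0.059), Clock 1435775_at (-0.15 to 0.0059), Npas2 1421036_at (-0.11 to 0.017), Per2 1417602_at (-0.013 to 0.43), Per2 1417603_at (-0.0052 to 0.050) and Per3 1442243_at (-0.088 to 0.11). Among the other named genes it turned for Cry2 (-0.19 to 0.047), Rora (-0.0090 to 0.095), Nfil3 (-0.16 to 0.10), Bhlhe40 (-0.043 to 0.31), Bhlhe41 (-0.0084 to 0.046) and Cdkn1a (-0.31 to 0.045). With array weights Arntl 1457740_at was 0.014 and Nfil3 0.0010. The cause was not tested.

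The contrast of the arms, -0.54, ran from -0.76 to -0.42 without single animals. It was -0.71 with Arntl alone as the activator arm, -0.61 with Dbp and Tef added to the Per and Nr1d arm and -0.54 after quantile normalization. Same-numbered animals did not deviate together (correlations of -0.0057, 0.0077 and -0.047), so the replicate numbers were not taken as pairs. With the replicate block 0 clock probe sets passed and the contrast stayed at -0.54, with differences within numbers 1 to 3 of 0.25, -0.97 and -0.91.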

Other observations

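Some heat shock genes that were not among the largest group differences varied strongly between animals, and they are given here after their values were seen. Hspa1a read 8.54, 9.35 and 9.41 in ICD kidneys and 9.56, 9.11 and 8.88 in WT kidneys. Hsph1, a co-chaperone of the same response, read 10.99, 11.52 and 11.70 in ICD kidneys and 11.92, 11.68 and 11.28 in WT kidneys. In both genes ICD 1 and WT 3 were the lowest arrays and WT 1 the highest. Tsc22d3, a glucocorticoid-induced leucine zipper protein, read 9.33, 9.76 and 9.68 in ICD kidneys and 9.87, 9.54 and 9.25 in WT kidneys, with the same arrays at the ends. ICD 1 and WT 3 were also the lowest arrays of Per2 at 1417602_at, whereas WT 2 was lower than ICD 1 for Dbp. Other heat shock genes were ordered differently. Hspa1b and Hspa8 had ICD 1 and WT 3 lowest but ICD 3 highest, Hspb1 had ICD 1 and ICD 2 lowest, and Dnajb1 had WT 3 and WT 1 lowest. None of these genes passed the group test.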
